A study of Arabidopsis thaliana with 12 samples.

Results

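In developing Arabidopsis seeds, 23 genes had transcripts that were lower in the abi3-6 mutant than in wild type at 12 days after flowering (DAF) and higher than in wild type at 16 DAF. They were chosen from 13513 probe sets paired with 1 gene, by their group means: abi3-6 minus wild type had to be at most -0.8 log2 units at 12 DAF and at least 0.8 at 16 DAF, a 1.74-fold difference each way, and at least 1 of the 4 group means had to exceed 5. COR47, DELTA-VPE and DFR also met these limits and were left out by name, as was ALC, none of whose group means exceeded 5. The measured values themselves chose the 23 genes, so the 2 genotype differences and their contrast are given below as descriptions and not as tests. Of the 23 genes, 5 have a symbol in the gene table used here: EXPA4, EXPA9, GH9C2, scpl48 and VPS2.2. The other 18 are known there by a locus code alone, and no role is given to them.

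The seeds came from siliques of Col-0 wild-type plants or of plants homozygous for abi3-6, one mutant allele of ABI3, at either age. Each of the 4 groups had 3 arrays, from 3 batches of plants, and the labels count them as biological replicates. In the titles of the wild-type arrays at 12 DAF alone, an extra 2- stands before the array number. Whatever it marks cannot be told apart from genotype at 12 DAF or from age in wild type. The labels name no tissue within the seed, so embryo, endosperm and seed coat are taken to have been measured together, and fewer cells of a type cannot be told apart from less RNA per cell. ABI3 had no probe set paired with it alone, and its level is not analysed here. Array medians lay between 4.05 and 4.46 log2 units, and 2 arrays of the same group had an r of 0.990 to 0.996 over probe sets. The number of arrays limits the precision. The difference between actin control probe sets at the 3′ and 5′ ends, a sign of RNA quality, was -0.37 ± 0.17 log2 units in wild type and 0.37 ± 0.09 in abi3-6 at 12 DAF, and -0.21 ± 0.02 and 0.37 ± 0.03 at 16 DAF (SD, n = 3). It moved with genotype at both ages, and its part in the results below was not tested.

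ABI3 is a B3-domain transcription factor that directs seed maturation, the phase in which the embryo stores protein and oil, loses its chlorophyll and becomes tolerant to drying. Seeds of strong abi3 mutants stay green and do not survive desiccation. Of the named genes, expansins such as EXPA4 and EXPA9 loosen cell walls during growth, and family 9 glycosyl hydrolases such as GH9C2 are endoglucanases that act on cellulose and related wall glucans. Serine carboxypeptidase-like proteins such as scpl48 belong to a family of peptidases and acyltransferases. VPS2, known from yeast, is part of the ESCRT-III complex that sorts membrane proteins into vacuole-bound vesicles.

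Opposite differences at the 2 ages were rare in these seeds. Among the 6392 probe sets with 1 gene and a group mean over 5, 918 were lower in abi3-6 by at least 0.8 log2 units at 12 DAF. At 16 DAF 700 of these were again lower by that much and 26 were higher, the 23 genes and the 3 left out by name. The reverse order, higher at 12 DAF and lower at 16 DAF, was met by 23 genes under the same limits. A further 20 probe sets with no gene in the annotation and 0 with several genes met the limits, and they are not analysed here.

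**Figure D1:**
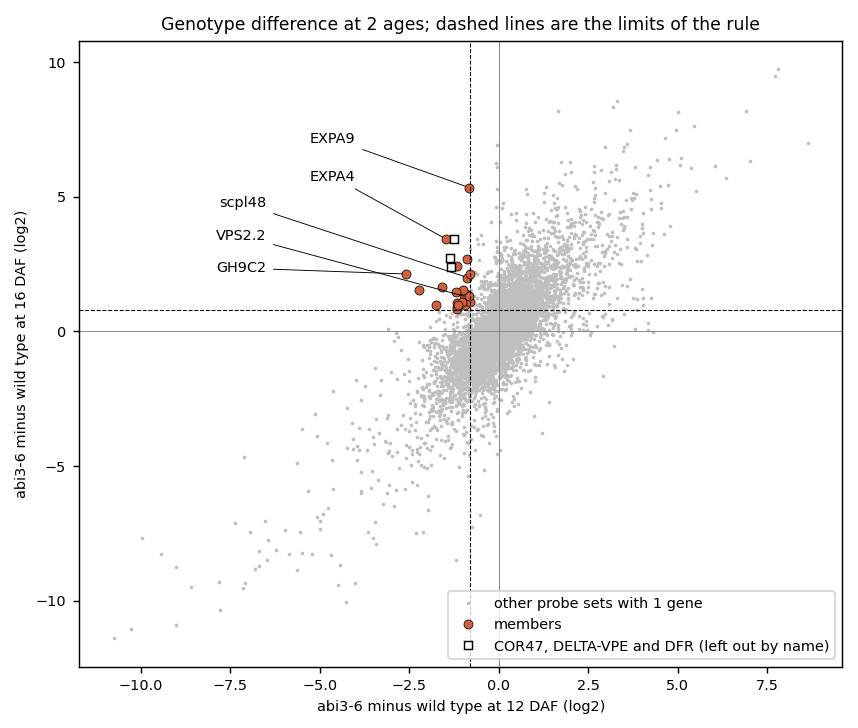
Difference between abi3-6 and wild type (log2 group means) at 12 DAF on the horizontal and at 16 DAF on the vertical axis, for 6392 probe sets with 1 gene and a group mean over 5. The 23 members (red circles) lie left of -0.8 and above 0.8, the dashed limits of the rule, while most points lie along the rising diagonal. EXPA9 and EXPA4 are drawn at their fitted heights, although wild type was dim at 16 DAF.

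The wall genes EXPA9, EXPA4 and GH9C2 come first. EXPA9 read 4.55, 3.82 and 4.64 in wild type and 3.60, 3.46 and 3.46 in abi3-6 at 12 DAF, and 2.81, 2.52 and 2.79 against 7.87, 7.96 and 8.30 at 16 DAF. The wild-type arrays at 16 DAF all lay under 3.16 log2 units, the limit below which a signal is called dim here, so the mutant was at least 29.4-fold higher at that age. EXPA9 entered the list narrowly on its 12 DAF side, with a difference of -0.83 ± 0.20 (SE). No exact 16 DAF difference is given for it, since its wild-type signal lay in the dim range.

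For EXPA4 the arrays at 12 DAF gave 6.35, 5.74 and 6.00 in wild type and 4.59, 4.47 and 4.57 in the mutant, and those at 16 DAF gave 1.94, 1.92 and 2.30 and 5.46, 4.91 and 6.10. Every wild-type array at 16 DAF was again dim for this second expansin, and the mutant was at least 5.03-fold higher there. At 12 DAF GH9C2 stood at 9.22, 9.38 and 9.39 in wild type against 6.78, 6.70 and 6.71 in abi3-6, and at 16 DAF at 5.20, 4.79 and 4.92 against 6.67, 6.58 and 8.05. The endoglucanase gene thus had the largest deficit of all 23 genes at 12 DAF, -2.60 ± 0.29 (SE), followed by an excess of 2.13 ± 0.29 at 16 DAF. Of the 3 mutant arrays at 16 DAF, replicate 3 stood above the other two by over 1 log2 unit for GH9C2, and the 16 DAF difference without it was 1.66 ± 0.15 (adjusted p = 6.84e-07). For all 3 wall genes the mutant and wild-type arrays did not overlap at either age, and wild type was higher at 12 DAF and lower at 16 DAF.

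The peptidase family gene and the ESCRT gene had smaller contrasts. Wild-type arrays gave 11.38, 11.35 and 11.27 for scpl48 at 12 DAF and 9.39, 9.62 and 9.42 at 16 DAF, where abi3-6 arrays gave 10.38, 10.49 and 10.51 and then 11.23, 11.32 and 11.87. The genotype differences of scpl48 were -0.88 ± 0.16 and 2.00 ± 0.16 (SE). VPS2.2 read 6.98, 7.13 and 7.01 in wild type and 5.95, 6.26 and 6.28 in abi3-6 at 12 DAF, and 4.70, 4.67 and 4.69 against 6.19, 5.63 and 6.07 at 16 DAF. For VPS2.2 the differences were -0.88 ± 0.16 and 1.27 ± 0.16, and its wild-type SD at 16 DAF was 0.01 (n = 3), the smallest of any group for these genes.

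Among the 18 genes known by locus code, AT5G14940, AT4G02540, AT2G39400 and AT1G22160 had some of the largest differences at both ages. For AT5G14940 the arrays at 12 DAF gave 7.97, 7.82 and 8.03 in wild type and 6.40, 6.23 and 6.47 in the mutant, and those at 16 DAF gave 4.98, 4.998 and 5.18 and 6.62, 6.56 and 6.88. At 12 DAF AT4G02540 stood at 5.33, 5.55 and 5.07 in wild type against 3.32, 3.19 and 2.76 in abi3-6, and at 16 DAF at 3.68, 3.86 and 3.64 against 4.69, 5.01 and 6.06. AT4G02540 was dim on 1 of 3 mutant arrays at 12 DAF. Wild-type arrays gave 7.47, 7.51 and 7.40 for AT2G39400 at 12 DAF and 4.46, 5.44 and 4.76 at 16 DAF, where abi3-6 arrays gave 6.07, 6.08 and 6.66 and then 6.41, 6.15 and 6.48. AT1G22160 read 6.32, 6.00 and 6.52 in wild type and 5.27, 5.26 and 4.78 in abi3-6 at 12 DAF, and 4.24, 4.06 and 4.07 against 6.34, 6.07 and 7.22 at 16 DAF. Wild type and mutant exchanged places between the ages in each of these 4 genes without any overlap of arrays.

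**Figure D2:**
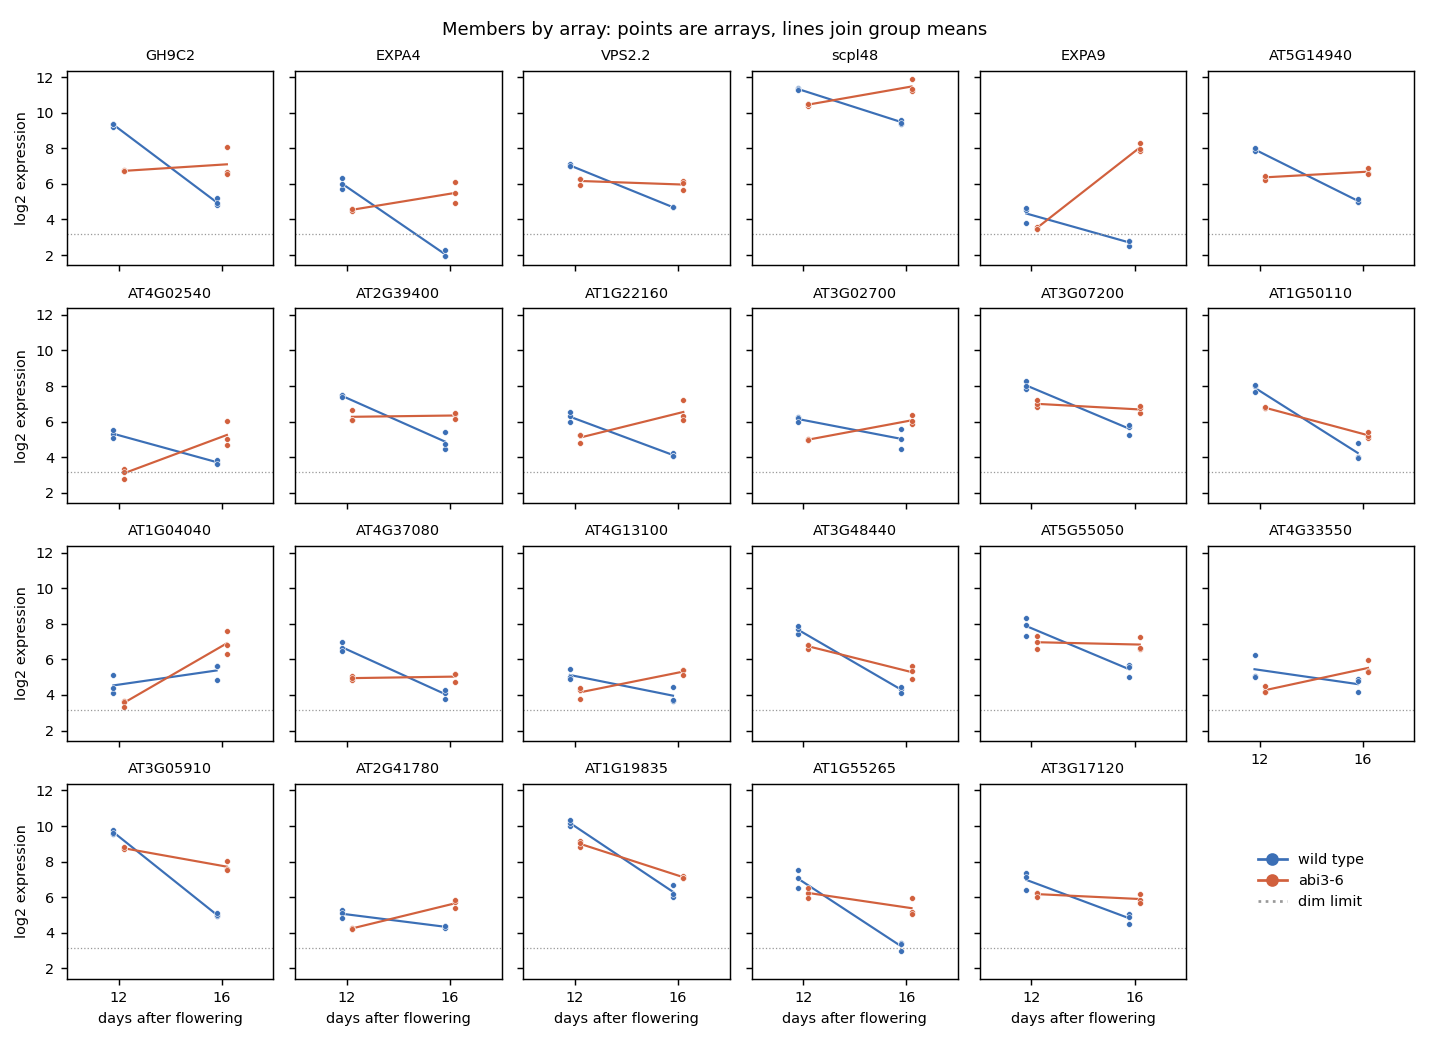
Log2 expression of the 23 genes on every array, at 12 and 16 DAF (horizontal axis), with wild type in blue and abi3-6 in orange, lines joining group means and the dotted line at the dim limit of 3.16. In every panel the wild-type points lie above the mutant points at 12 DAF and below them at 16 DAF, and all but AT1G04040 show a falling wild-type line. The panels share an axis, but levels of different probe sets cannot be compared.

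Across all 23 genes the 12 DAF difference ran from -2.60 to -0.80 log2 units (median -1.03) and the 16 DAF difference from 0.82 upwards (median 1.39). The top of the 16 DAF range is EXPA9, for which only the bound of 29.4-fold holds. These ranges, and the absence of overlap between the genotypes in 23 of 23 genes at either age, follow largely from the rule. Array medians at 16 DAF were 4.05 to 4.10 in wild type and 4.43 to 4.46 in abi3-6. With arrays centred on their medians the median 16 DAF difference of the 23 genes was 1.03, and 22 of 23 passed. At 12 DAF 31.2% of 14873 probe sets tested had all wild-type arrays above all mutant arrays, and at 16 DAF 36.9% had all mutant arrays above all wild-type arrays. In limma, over all probe sets tested, 23 of 23 passed as lower at 12 DAF (23.7% of all), 23 as higher at 16 DAF (35.6% of all) and 23 as having a positive interaction of genotype and age (21.2% of all). Over all probe sets 27.1% were higher at 12 DAF, 34.6% were lower at 16 DAF and 18.9% had a negative interaction. The count at 12 DAF was 20 without abi3-6 12 DAF replicate 3, and 21 to 23 without any other single array. The genes whose 12 DAF difference failed to pass in some of these fits were AT1G04040, AT5G55050 and AT1G55265. AT1G04040 (-0.69) and AT1G55265 (-0.78) failed without wild-type 12 DAF replicate 1, and AT5G55050 (-0.67) and AT1G55265 (-0.57) without replicate 2. Without abi3-6 12 DAF replicate 3 all 3 failed (-0.88, -0.72 and -0.67), and without abi3-6 12 DAF replicate 1 AT1G55265 alone (-0.80). With no dim filter AT1G04040 and AT1G55265 failed. Nothing is read from these counts, since the rule used the same contrasts. The excess at 16 DAF was the larger of the 2 differences for 16 genes and the deficit at 12 DAF for 7.

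The change with age within each genotype is built from the same group means that the rule used. The rule requires the mutant change to exceed the wild-type change by at least 1.6 log2 units, which favours falls in wild type and rises in the mutant, so the counts by age are descriptions too. In wild type 22 of 23 genes fell from 12 to 16 DAF, by the same threshold in limma, with a median over all 23 of -2.44 log2 units. Of all probe sets tested 30.4% fell and 32.0% rose, and nothing is read from the gap between these shares. In 22 genes all wild-type arrays at 12 DAF lay above all those at 16 DAF, against 31.5% of all. The median change of all probe sets tested was 0.07. AT1G04040 was the exception, with a wild-type change of 0.84 ± 0.33 (SE, adjusted p = 0.0385). Its wild-type ages overlapped, and the call was lost with no dim filter and without wild-type 12 DAF replicate 2 or 3 or wild-type 16 DAF replicate 1 or 2, where the change was 0.63 to 0.84. Since the rule could also have been met by genes flat in wild type and rising in the mutant, this count describes which of these forms the 23 genes took. The names of the raw files of all arrays at 16 DAF begin with a shared prefix that those at 12 DAF lack, so whatever it marks and age cannot be told apart.

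In abi3-6 the same genes split by age into 10 that rose, 5 that fell and 8 that did not pass (limma, Benjamini-Hochberg), where 27.1% of all probe sets tested rose and 23.5% fell. The median mutant change was 0.32 log2 units. All mutant arrays at 16 DAF lay above those at 12 DAF for 11 genes (35.7% of all probe sets) and below them for 5 (27.8% of all). For 17 of 23 genes the mutant changed less with age, in either direction, than wild type did. Both mutant means lay between the 2 wild-type means for 14 genes. No share over all probe sets is given for these 2 counts, and nothing is read from them. By the rule the highest of the 4 group means can only be that of wild type at 12 DAF or abi3-6 at 16 DAF. Likewise the lowest can only be that of wild type at 16 DAF or abi3-6 at 12 DAF. The highest was wild type at 12 DAF for 16 genes and abi3-6 at 16 DAF for the other 7. The lowest was wild type at 16 DAF for 18 and abi3-6 at 12 DAF for 5, and these counts are descriptions.

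**Figure D3:**
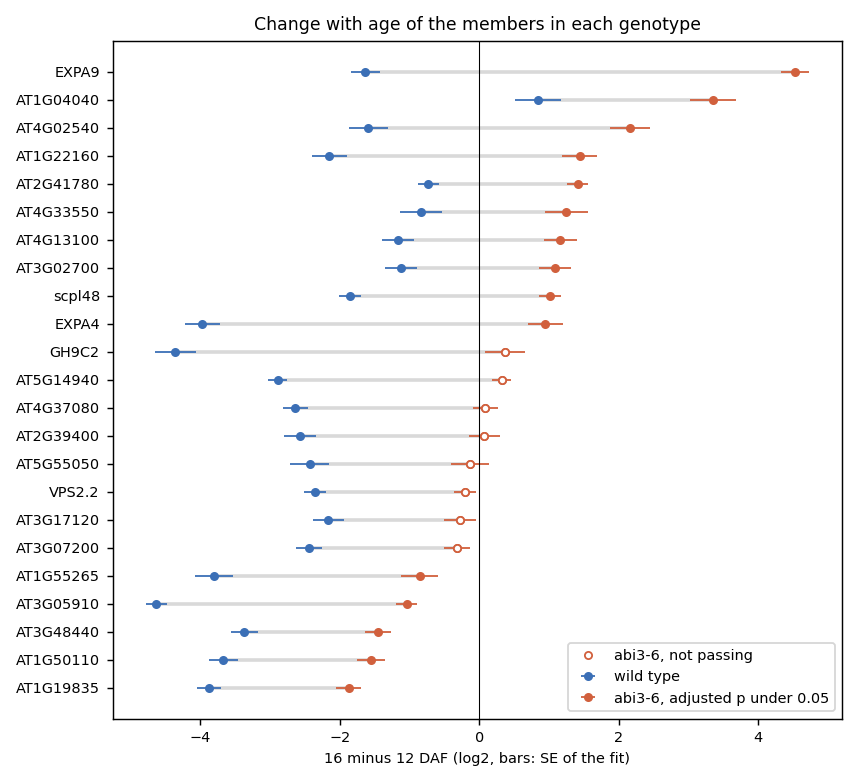
Change from 12 to 16 DAF (log2, horizontal axis, bars are SE of the fit) of each gene in wild type (blue) and abi3-6 (orange, open where it did not pass). The wild-type changes run from -4.63 to 0.84 and the mutant changes from -1.88 to 4.53, with the mutant to the right of wild type for every gene, as the rule requires. The wild-type points of EXPA9 and EXPA4 rest on dim signals at 16 DAF.

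The 10 genes that rose with age in abi3-6 were EXPA9, EXPA4, scpl48, AT4G02540, AT1G22160, AT1G04040, AT3G02700, AT4G13100, AT4G33550 and AT2G41780. Their mutant changes ran from 0.95 to 4.53 log2 units (limma, adjusted p from 1.1e-09 to 0.0059), with EXPA9 at 4.53 ± 0.20 (SE), AT1G04040 at 3.35 ± 0.33 and AT4G02540 at 2.16 ± 0.28 as the largest. In wild type 9 of these 10 fell. Thus EXPA9, EXPA4 and scpl48 moved in opposite directions with age in the 2 genotypes: scpl48 fell by 1.86 ± 0.16 (SE) in wild type and rose by 1.02 ± 0.16 in abi3-6.

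For AT1G04040 the arrays at 12 DAF gave 5.12, 4.11 and 4.38 in wild type and 3.69, 3.63 and 3.34 in the mutant, and those at 16 DAF gave 5.63, 5.63 and 4.87 and 6.82, 6.28 and 7.62. The mean of this gene was higher at 16 than at 12 DAF in both genotypes, the only such case among the 23. At 12 DAF AT3G02700 stood at 6.26, 6.18 and 6.00 in wild type against 4.96, 5.03 and 4.98 in abi3-6, and at 16 DAF at 4.45, 5.05 and 5.59 against 5.85, 6.02 and 6.35. Wild-type arrays gave 5.02, 5.45 and 4.90 for AT4G13100 at 12 DAF and 3.67, 3.74 and 4.47 at 16 DAF, where abi3-6 arrays gave 4.29, 3.77 and 4.40 and then 5.42, 5.41 and 5.12. In the mutant at 16 DAF the mean of AT3G02700 differed by -0.07, and that of AT4G13100 by 0.19, from the wild-type mean at 12 DAF. AT4G33550 read 6.25, 5.07 and 5.02 in wild type and 4.51, 4.14 and 4.15 in abi3-6 at 12 DAF, and 4.89, 4.76 and 4.18 against 5.33, 5.29 and 5.94 at 16 DAF. For AT2G41780 the arrays at 12 DAF gave 5.25, 5.11 and 4.84 in wild type and 4.22, 4.27 and 4.24 in the mutant, and those at 16 DAF gave 4.39, 4.24 and 4.38 and 5.38, 5.74 and 5.84. AT4G33550 had 1 wild-type array at 12 DAF well above the other two. Its fall in wild type was lost without that array (-0.44, limma adjusted p = 0.14), and also after median centring (-0.61, 0.0832), after quantile normalization (-0.59, 0.114), without wild-type 16 DAF replicate 3 (-0.62, 0.117) and with no dim filter (-0.84, 0.074). Its 16 DAF difference no longer passed after either scaling between arrays (0.55 and 0.58), without wild-type 16 DAF replicate 3 (0.69) or without abi3-6 16 DAF replicate 3 (0.70).

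The 5 genes that fell with age in both genotypes were AT3G05910, AT1G50110, AT3G48440, AT1G19835 and AT1G55265. They had wild-type changes between -4.63 and -3.37 log2 units and mutant changes between -1.88 and -0.85 (limma, adjusted p from 1.12e-06 to 0.0171). At 12 DAF AT3G05910 stood at 9.75, 9.57 and 9.63 in wild type against 8.74, 8.68 and 8.83 in abi3-6, and at 16 DAF at 4.96, 4.97 and 5.13 against 7.56, 7.52 and 8.06. Wild-type arrays gave 7.69, 7.99 and 8.06 for AT1G50110 at 12 DAF and 3.99, 4.79 and 3.95 at 16 DAF, where abi3-6 arrays gave 6.75, 6.76 and 6.85 and then 5.10, 5.18 and 5.43. In AT3G05910 the fall in the mutant was 22.4% of the wild-type fall on the log2 scale, and in AT1G50110 it was 42.3%.

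AT3G48440 read 7.43, 7.72 and 7.85 in wild type and 6.83, 6.56 and 6.81 in abi3-6 at 12 DAF, and 4.31, 4.46 and 4.12 against 5.63, 4.89 and 5.34 at 16 DAF. For AT1G19835 the arrays at 12 DAF gave 10.01, 10.15 and 10.36 in wild type and 8.81, 9.13 and 9.05 in the mutant, and those at 16 DAF gave 6.03, 6.70 and 6.17 and 7.20, 7.08 and 7.08. At 12 DAF AT1G55265 stood at 7.08, 7.50 and 6.54 in wild type against 6.22, 6.52 and 5.97 in abi3-6, and at 16 DAF at 3.40, 3.36 and 2.96 against 5.14, 5.06 and 5.95. AT1G19835 had the closest approach of the genotypes at 16 DAF, with a difference of 0.82 ± 0.17 (SE). For AT1G55265 1 of 3 wild-type arrays at 16 DAF was dim, and its fall in the mutant was lost without abi3-6 12 DAF replicate 2 (-0.71, adjusted p = 0.0735), abi3-6 16 DAF replicate 1 (-0.73, 0.0653) or replicate 2 (-0.69, 0.0749), and with no dim filter (-0.85, 0.0551).

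The remaining 8 genes did not pass with age in the mutant, with changes from -0.32 to 0.37 log2 units, while all 8 fell in wild type (-4.36 to -2.16). They were GH9C2, VPS2.2, AT5G14940, AT2G39400, AT3G07200, AT4G37080, AT5G55050 and AT3G17120. A p that misses the threshold does not show that the mutant level was constant: for GH9C2 the change was 0.37 ± 0.29 (SE, adjusted p = 0.318), and without abi3-6 16 DAF replicate 3 it was -0.11 ± 0.15 (adjusted p = 0.611). For AT5G14940 it was 0.32 ± 0.14 (adjusted p = 0.0655), and it passed with the replicate block (0.048), quantile normalization (0.0459) and no dim filter (0.037). AT3G07200 passed as falling with array weights (-0.41, limma adjusted p = 0.0436).

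Wild-type arrays gave 8.29, 7.82 and 7.99 for AT3G07200 at 12 DAF and 5.70, 5.82 and 5.28 at 16 DAF, where abi3-6 arrays gave 6.81, 6.98 and 7.22 and then 6.46, 6.74 and 6.85. AT4G37080 read 6.65, 6.48 and 6.96 in wild type and 4.84, 5.05 and 4.95 in abi3-6 at 12 DAF, and 4.10, 4.28 and 3.79 against 4.71, 5.20 and 5.19 at 16 DAF. AT4G37080 had a larger deficit at 12 DAF, -1.75 ± 0.18 (SE), than excess, 0.98 ± 0.18 at 16 DAF. For AT5G55050 the arrays at 12 DAF gave 7.94, 8.35 and 7.34 in wild type and 7.31, 7.0 and 6.59 in the mutant, and those at 16 DAF gave 5.70, 5.59 and 5.03 and 7.26, 6.60 and 6.64. At 12 DAF AT3G17120 stood at 7.35, 6.41 and 7.16 in wild type against 6.25, 6.25 and 6.02 in abi3-6, and at 16 DAF at 4.503, 5.06 and 4.87 against 5.84, 5.69 and 6.16. AT3G17120 and AT1G55265, at -0.80 and -0.81 at 12 DAF, were the members nearest to the limit.

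Just outside the limit were AT3G07320 and AT3G61610, with 12 DAF differences of -0.79 and -0.78 log2 units and 16 DAF differences of 3.06 and 1.53. Wild-type arrays gave 6.98, 7.19 and 6.90 for AT3G07320 at 12 DAF and 2.25, 3.69 and 3.96 at 16 DAF, where abi3-6 arrays gave 6.27, 6.25 and 6.17 and then 6.13, 5.88 and 7.08. AT3G61610 read 7.10, 7.28 and 7.07 in wild type and 6.41, 6.21 and 6.50 in abi3-6 at 12 DAF, and 4.58, 4.72 and 5.04 against 6.37, 6.23 and 6.33 at 16 DAF. In neither gene did the genotypes overlap at either age. The genes left out by name had values of the same kind. For DELTA-VPE the arrays at 12 DAF gave 10.30, 10.48 and 9.79 in wild type and 8.62, 8.97 and 8.96 in the mutant, and those at 16 DAF gave 6.80, 6.82 and 6.47 and 9.23, 8.95 and 9.06. At 12 DAF COR47 stood at 6.80, 7.33 and 7.03 in wild type against 5.48, 5.87 and 6.02 in abi3-6, and at 16 DAF at 4.93, 4.71 and 3.80 against 7.51, 7.59 and 8.61. Wild-type arrays gave 5.54, 4.80 and 5.05 for DFR at 12 DAF and 3.86, 3.69 and 3.65 at 16 DAF, where abi3-6 arrays gave 4.08, 3.50 and 3.75 and then 6.29, 6.04 and 7.05. DELTA-VPE is a vacuolar processing enzyme of the seed coat, COR47 a dehydrin and DFR the dihydroflavonol reductase of the flavonoid pathway.

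Mutant seeds at 16 DAF were also set against wild-type seeds at 12 DAF, a contrast the rule did not use as such, although it shares arrays with those the rule used. It equals the 12 DAF difference plus the mutant change with age, and the rule holds that difference at -0.8 log2 units or less. Genes that did not rise in the mutant are thus led to come out lower, and the counts are descriptions. Of the 23 genes 13 were lower in the older mutant seeds, 3 were higher and 7 did not pass (limma, Benjamini-Hochberg), where 30.2% of all probe sets tested were lower and 35.9% higher. The 3 higher were EXPA9 (3.71 ± 0.20, SE), AT1G04040 (2.37 ± 0.33) and AT2G41780 (0.58 ± 0.15). The 7 that did not pass, with changes from -0.54 to 0.27, were EXPA4, scpl48, AT4G02540, AT1G22160, AT3G02700, AT4G13100 and AT4G33550. EXPA4, at -0.54 ± 0.25, missed the threshold (adjusted p = 0.0722) but passed as lower in 6 alternatives. These were the replicate block (-0.54, limma adjusted p = 0.0385), median centring (-0.67, 0.0252), quantile normalization (-0.63, 0.0447), array weights (-0.72, 0.0124), and the fits without abi3-6 16 DAF replicate 3 (-0.84, 0.00358) or wild-type 12 DAF replicate 2 (-0.68, 0.0448). All 13 lower genes belonged to those that fell or did not pass with age in the mutant, which follows largely from the rule. AT1G19835 (-3.05 ± 0.18) and AT1G50110 (-2.68 ± 0.20) were the lowest.

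Leaving out single arrays changed which genes met the rule. Among the mutant arrays at 16 DAF, replicate 3 gave the highest value for 17 of 23 genes and replicate 2 the lowest for 14, where replicate 3 was highest for 35.5% and replicate 2 lowest for 31.2% of all probe sets tested. Without replicate 3 the same fit passed 22 genes as higher in abi3-6 at 16 DAF, 10 as rising and 5 as falling with age in the mutant, and 24 genes met the rule, 22 of them members. Over all arrays, leaving out 1 at a time kept between 17 and 23 of the 23 genes within the rule, with the fewest without wild-type 12 DAF replicate 1.

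Families of the 5 genes with a symbol were taken from the gene table by symbol, after the members were known. Of 33 expansin and expansin-like loci, 18 had a probe set of their own and 6 passed the filter on dim signals. At 12 DAF 5 of these 6 were lower and 1 higher in abi3-6 (limma, Benjamini-Hochberg). At 16 DAF 3 were higher, 2 lower and 1 did not pass. Over all probe sets tested 23.7% were lower and 27.1% higher at 12 DAF, and 35.6% higher and 34.6% lower at 16 DAF. Nothing is read from the counts in these families, which are small, hold members and were not tested as sets. EXPA4 and EXPA9 were the members. EXPA20 was higher at both ages, by at least 8.34-fold at 12 DAF, where all wild-type arrays were dim, and by 4.88 ± 0.17 log2 units (SE) at 16 DAF. EXPA15 was lower at both, by -1.77 ± 0.27 and -0.91 ± 0.27, as was the expansin-like EXLA1 (-0.87 ± 0.30 and -1.84 ± 0.30). EXPB1 was lower at 12 DAF (-0.56 ± 0.20) and did not pass at 16 DAF (0.31 ± 0.20). That 16 DAF value rests on dim signals, since every wild-type array was dim and only 1 mutant array was not. Of the 6 expansins, then, 2 went from lower to higher, 3 differed the same way at both ages, and EXPB1 passed at 12 DAF alone.

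Of 15 family 9 glycosyl hydrolase genes with a probe set, 5 passed the filter. GH9C2 was the one that turned. GH9B7 was higher in abi3-6 at both ages (0.83 ± 0.13 and 2.65 ± 0.13, SE), GH9B8 passed as lower at 12 DAF (-2.87 ± 0.24) and not at 16 DAF (-0.05 ± 0.24), and GH9B18 passed as higher at 16 DAF (at least 1.39-fold) and not at 12 DAF (0.01 ± 0.17). Each of these 4 had a positive interaction of genotype and age. The other tested gene, GH9A3, passed as lower at 16 DAF, where every mutant array was dim, and did not pass at 12 DAF (0.07 ± 0.12). Only 2 of 3 wild-type arrays were above the dim limit for GH9A3 at 16 DAF. The bound there is 1.0-fold, so no decrease is read from that call. The interaction of GH9A3 had the opposite sign, -0.45 ± 0.17, and did not pass (limma adjusted p = 0.0528). GH9B8 was dim on every array of both genotypes at 16 DAF, and GH9B18 on every wild-type array at that age.

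Of 15 serine carboxypeptidase-like genes past the filter 11 were higher in abi3-6 and 1 lower at 16 DAF, and 7 were higher and 3 lower at 12 DAF. The shares over all probe sets tested were 35.6% and 34.6% at 16 DAF, and 27.1% and 23.7% at 12 DAF. The family's median difference was 0.33 at 12 DAF and 2.41 at 16 DAF, against -0.003 and -0.028 for all probe sets tested, and 2.04 at 16 DAF with genes dim in wild type set at their bounds. Nothing is read from these counts and medians, since the family was chosen after its member scpl48 was known. In scpl20 the 16 DAF excess was at least 34.8-fold, with no 12 DAF difference that passed (-0.06 ± 0.32, SE), and scpl29 and scpl35 were higher at both ages. SCPL49 differed by 0.31 ± 0.14 at 12 DAF, which did not pass (adjusted p = 0.0867), and by 1.15 ± 0.14 at 16 DAF. Only scpl48 of these 15 was past the limits in opposite directions.

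Among 9 VPS genes past the filter, VPS2.2 was the only one past both limits. Its namesake VPS2.1 was lower in abi3-6 at both ages, by -0.57 ± 0.12 and -0.74 ± 0.12 log2 units (SE), and had no interaction that passed (-0.18 ± 0.17, adjusted p = 0.44). Over the 9 genes 1 had a positive interaction, VPS2.2, and 2 a negative one, VPS60.1 (-0.76) and VPS60.2 (-0.63).

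**Figure D4:**
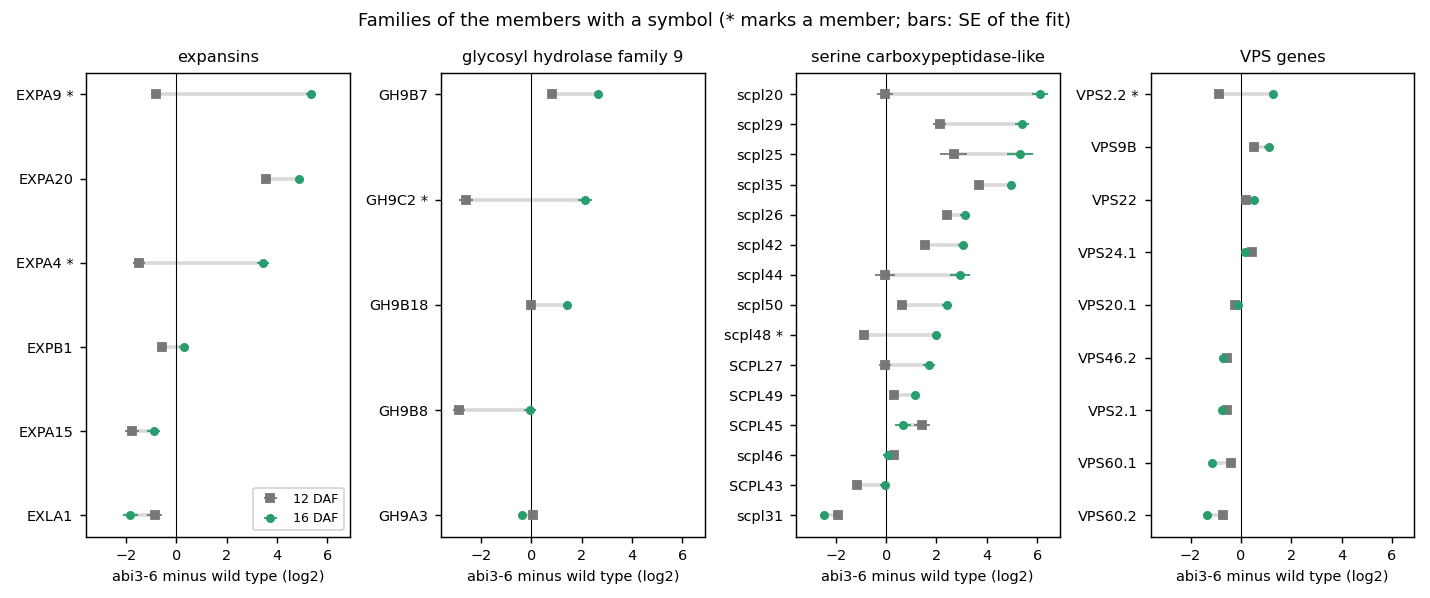
Difference between abi3-6 and wild type (log2, horizontal axis, bars are SE of the fit) at 12 DAF (grey squares) and 16 DAF (green circles) for tested genes of 4 families, with members starred. Points set against a dim group, such as EXPA9 and EXPA4 at 16 DAF, are fitted values and not bounds. The grey lines joining the ages run across 0 for EXPA9, EXPA4, GH9C2, scpl48 and VPS2.2, while most other genes stay on one side of 0 or start near it.

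Markers of seed tissues were few in the annotation. Of 5 silique wall loci only ALC had a probe set of its own, and it was lower at 12 DAF and higher at 16 DAF in abi3-6. Its arrays ran from 3.60 to 4.63 in wild type and 2.92 to 3.18 in abi3-6 at 12 DAF, and from 2.70 to 3.30 and 3.62 to 4.75 at 16 DAF. Only 1 of 3 mutant arrays at 12 DAF and 1 of 3 wild-type arrays at 16 DAF lay above the dim limit for ALC. The rule left ALC out by name, and nothing is read from it as a marker. Of 18 flavonoid loci 2 had a probe set of their own, DFR and BAN, a reductase of seed coat tannin synthesis, and BAN did not pass at either age. Their mean log2 level ranged over arrays from 4.0 to 4.35 in wild type and 3.36 to 3.56 in abi3-6 at 12 DAF, and from 2.90 to 3.25 and 4.22 to 4.92 at 16 DAF. BAN was dim on every array of both genotypes at 16 DAF, and DFR itself met the limits of the rule. The mean of these 2 genes thus follows DFR, and nothing is read from it. Of 12 seed coat mucilage loci 3 had a probe set of their own and 2 passed the filter. AT2G22900 differed by 0.03 ± 0.20 log2 units at 12 DAF, which did not pass, and was higher by 4.06 ± 0.20 (SE) at 16 DAF, and the protease ARA12 was higher at both ages. The mean log2 level of these 2 mucilage genes ranged over arrays from 9.13 to 9.21 in wild type and 9.31 to 9.71 in abi3-6 at 12 DAF, and from 6.65 to 6.99 and 9.39 to 9.73 at 16 DAF. The part of seed coat or silique wall RNA in the pattern of the 23 genes was not tested.

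The oleosins and maturation regulators listed as markers of the embryo were not higher in abi3-6 at 16 DAF. These genes belong to the maturation that ABI3 directs, so their levels cannot measure the share of embryo RNA, which was not tested. All 4 measured oleosins of 7 listed, coat proteins of oil bodies, were lower in abi3-6 at both ages, with medians of -2.30 and -6.60 log2 units. One of them, AT2G25890, was dim on every mutant array and at least 652-fold lower at 12 DAF. It stood apart at that age, where the other oleosins were 1.97- to 4.9-fold lower. The mean oleosin level ranged over arrays from 12.81 to 13.05 in wild type and 8.90 to 9.10 in abi3-6 at 12 DAF, and from 12.17 to 12.21 and 4.34 to 5.71 at 16 DAF. Of 13 maturation regulators 2 were measured, both bZIP factors. EEL was lower at both ages (-1.29 ± 0.23 and -1.60 ± 0.23, SE), and BZIP53 was lower at 16 DAF (-0.85 ± 0.17) and did not pass at 12 DAF (-0.24 ± 0.17). Of 11 endosperm loci IKU2 alone had a probe set, which was too dim to test. Of 29 abscisic acid and dehydration loci 3 had one, and COR47 was the one past the filter. Of 15 suberin loci FACT alone had one. It passed as lower in abi3-6 at both ages, by -0.45 ± 0.14 (SE) at 12 DAF, and at 16 DAF it was dim on every mutant array and on 2 of 3 wild-type arrays. Of the senescence and jasmonate lists 0 loci had a probe set of their own.

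The 23 genes were spread over the genome. In gene order 6 of them lay on chromosome 1, 3 on chromosome 2, 6 on chromosome 3, 4 on chromosome 4 and 4 on chromosome 5, and no pair was closer than 31 protein-coding genes apart. Of the protein-coding genes directly beside them, 25 had a probe set of their own and 0 were members. Of those 25, 7 were higher in abi3-6 by at least 0.8 log2 units at 16 DAF and 2 were lower by that much at 12 DAF, AT5G55060 and AT3G17130. Of all 13513 probe sets with 1 gene 14.9% and 7.67% were past the same limits, as were 1719 and 918 of the 6392 with a group mean over 5, and nothing is read from the neighbours' counts. AT3G17130, beside AT3G17120, was lower at both ages (-3.05 and -4.45), and AT4G33540 and AT4G33560, on either side of AT4G33550, were higher at both (3.59 and 1.68, 2.89 and 3.21). Of the 23 genes 0 had another probe set of their own, so each rests on 1 probe set.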

How the data were processed

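Affymetrix arrays measured total RNA from seeds, 1 array for each of 12 samples. The authors' deposited table held 22810 probe sets, of which 64 were controls. Per the submitters' processing notes GCOS 1.3 and GCRMA 2.0.0 were used, but their roles are not given in the sources used here. Values as deposited were taken to be log2 expression, from their range, since no label states the scale, and whether arrays were set to a common level is unknown. GCRMA's background model can stretch or compress differences of dim probe sets. Groups came from the sample titles.

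Gene names came from the annotation of the platform, updated through RefSeq's TAIR10.1 table, which served for symbols and gene order alone. Of 22746 probe sets 13513 had 1 gene, 503 several and 8730 none there. Testing required 3 arrays at or over 3.16, the 40th percentile of the whole table. This kept 14873 and left out 7873 as dim. A linear model with 4 group means was fitted with limma 3.58.1 in R 4.3.3 (lmFit, eBayes, 8 residual and 5.41 prior degrees of freedom), and a probe set passed at a two-sided Benjamini-Hochberg adjusted p under 0.05 over all tested. Errors written SE come from this fit. A group wholly under the dim limit gives a bound, with each array set to the higher of its own value and the limit. Bounds applied to EXPA4 and EXPA9, and the median changes were 1.39 at 16 DAF and -2.44 in wild type with age with or without them. Pandas 2.3.3, numpy 2.4.6 and matplotlib 3.10.9 in Python 3.11.15 made tables and figures. The fit was tested on simulated data.

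The members and gene lists were chosen with earlier results of these data known, and the families after the members. Every member is named, with each array's value for the 20 whose smaller difference was largest, for those with a symbol and for the 2 nearest the limit on either side. Other genes are those left out by name, up to 3 of each list, and family genes and neighbours chosen after their values were seen. Lists covered flavonoid, mucilage, suberin, endosperm, silique wall, dehydration, senescence, maturation, oleosin and jasmonate loci. Sequences were not used here, so the promoter motif search planned was not run. Alternatives were the dim filter, 2 scalings between arrays, array weights, replicate number as a block and leaving out each array.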

Additional observations from a re-analysis of the deposited data

Results flagged for a closer look

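The genotype difference changed between the ages, by an interaction term, for all 23 genes, as the rule that chose them requires, so these values are a description. In log2 units, the 16 DAF difference minus the 12 DAF difference had fitted values of 6.16 in EXPA9 and 4.92 in EXPA4. These rest on wild-type signals in the dim range at 16 DAF and have no place in an order. The others were GH9C2 (4.73), AT4G02540 (3.75), AT3G05910 (3.59), AT1G22160 (3.59), AT5G14940 (3.21) and AT1G55265 (2.95), then scpl48 (2.87), AT4G37080 (2.72), AT2G39400 (2.65), AT1G04040 (2.51), AT4G13100 (2.33) and AT5G55050 (2.30), and AT3G02700 (2.20), VPS2.2 (2.15), AT2G41780 (2.15), AT3G07200 (2.12), AT1G50110 (2.12), AT4G33550 (2.09), AT1G19835 (2.00), AT3G48440 (1.92) and AT3G17120 (1.89). The smallest contrast the rule allows is 1.6. Groups of 3 arrays were too small to test single arrays as outliers.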

How the results depend on the processing

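The 23 genes are a fixed list here, and p-values set a difference against the spread between arrays. For the contrasts that the rule used they are descriptions. The scalings shifted the median of all probe sets tested at 16 DAF from -0.028 to -0.409 after centring arrays on their medians and to -0.12 after quantile normalization, and at 12 DAF from -0.003 to -0.141 and -0.048. On the rule itself, centring left 18 genes, 15 of them among the 23, and quantile normalization 20, with 17 of the 23. Group medians in place of means gave 21 genes, a limit of 0.6 gave 44, a limit of 1.0 gave 8 and no limit on the level gave 26. Leaving out 1 array gave 21 to 27. The members kept under both scalings included all 5 genes with a symbol.

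With the 23 genes fixed, 2460 differences were recomputed over 18 alternatives. Of these 28 no longer passed, 10 passed anew, 17 that had not passed turned their sign, and 0 that had passed turned it. After either scaling 22 of 23 passed as higher at 16 DAF and 21 as falling in wild type. A stricter filter, at the 60th percentile, left 19 genes tested and 6 rising with age in abi3-6 in place of 10, since 4 genes were no longer tested. The rise of AT1G04040 in wild type was not called with no filter (0 genes higher) and gave 0 to 1 genes higher over the fits that leave out 1 array. Those fits gave 20 to 23 genes lower at 12 DAF and 22 to 23 higher at 16 DAF. With the replicate block 23, 23, 22 and 11 genes passed as lower at 12 DAF, higher at 16 DAF, falling in wild type and rising in abi3-6, so the block changed no count by more than 1 gene. The numbers share no stated source. Deviations of same-numbered arrays from their group means correlated by -0.02 to 0.16, and those of differently numbered arrays by -0.13 to 0.08. Not every array was closest to its own number. Each was between the genotypes at 12 DAF, and also between abi3-6 at 12 DAF and wild type at 16 DAF.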
